A study of Mus musculus with 2 samples.

Results

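The proteasome subunit genes analysed here were the 42 mouse genes, of 31053 in the count matrices, whose symbol is Psma, Psmb, Psmc, Psmd or Psme followed by a number. The symbol rule matched 43 genes, and 1 of them is not analysed here. By the role of the product, the 42 genes fell into 8 alpha ring, 8 beta ring, 6 ATPase, 3 non-ATPase base, 8 lid, 3 assembly-linked Psmd, 4 activator and 2 immunoproteasome genes. The choice used gene names and no measured value. In all, 40 of the 42 had at least 20 unique molecular identifiers (UMIs, counted transcript molecules) over both libraries. Psma8, which encodes a testis alpha subunit, had 10 control UMIs and 8 photoconversion UMIs. Psmb11, which encodes the beta subunit of the thymus, had 0 UMIs in both libraries, a count that allows up to 3 in each.

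The proteasome is the main protease for ubiquitin-tagged proteins in the cytosol and nucleus. Its 20S core stacks outer rings of alpha subunits, which gate the entrance, on inner rings of beta subunits, of which Psmb6, Psmb7 and Psmb5 encode those that cut peptide bonds (beta1, beta2 and beta5). A 19S cap binds and unfolds the substrate: its base holds a ring of ATPases (the Psmc genes) with ubiquitin-binding Psmd subunits, and its lid removes the ubiquitin chain. Interferon induces Psmb9 and Psmb10, whose products take the places of those of Psmb6 and Psmb7 in the immunoproteasome, and Psme1 and Psme2, which encode the PA28 alpha and beta activator. The resulting peptides feed antigen presentation on MHC class I. In mouse models of amyloid deposition, microglia near plaques are known for immunoproteasome expression.

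Cortical microglia were profiled by droplet single-cell RNA sequencing from male mice hemizygous for 5xFAD on C57BL/6J, aged 5.5 months. 5xFAD carries mutant human transgenes of familial Alzheimer's disease driven by the neuronal Thy1 promoter, and the animals of both groups carried it, so mice without the transgenes were not part of the comparison. The control group received 5 uL of Visudyne, a photosensitiser, into the cisterna magna at 4 months of age. The photoconversion group received the same injection and then 5 light steps at 689 nm through the skull, which ablates meningeal lymphatic vessels. A second round followed 3 weeks later, and brains were collected 3 weeks after that. Viable Ly6G-negative, CD45-positive, CD11b-positive singlets from 3 mice made up the single library of each group. The treatments therefore have no replicates, and library differences are given as values whose intervals cover counting error only.

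Kept as cells were barcodes with 200 or more detected genes and no more than 10% mitochondrial UMIs. These were 555 control and 317 photoconversion cells, with 2422711 and 1816177 UMIs and medians of 2670 and 3410 UMIs per cell. The libraries shared 27 barcodes, 0 of them among kept cells, and doublets were not removed. All 7 microglia markers were detected, at summed levels of 30919 and 28537 counts per 1e6 UMIs (CPM) in the control and photoconversion libraries. The lists of 8 other cell types summed to between 0 and 169 CPM in either library, with all 4 lymphocyte markers, Mog and Lyve1 at 0 in both. Cells were further split by 2 genes outside the proteasome. Cells with more UMIs of Cst7, a marker of disease-associated microglia, than of P2ry12, a homeostatic marker, are called Cst7-dominant, and the reverse P2ry12-dominant. The control library held 207 and 290 such cells and 58 with equal counts, and the photoconversion library 157, 133 and 27. Of the cells with equal counts, 45 and 21 had no UMI of either gene. Among these cells with equal counts, monocyte markers reached 1143 CPM in the control library and endothelial markers 2012 CPM in the photoconversion library. The cut is a range and not a type: counts differed by exactly 1 UMI in 57 control and 31 photoconversion cells.

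The proteasome genes together took a slightly smaller part of the UMIs in the photoconversion library. By CPM the 19S genes had a lower ratio than the core, a gap that nearly closed after thinning and turned with equal weight per cell. The activators and immunoproteasome genes had ratios above 1. After thinning this did not hold for the activators and was smaller for the immunoproteasome genes. All 42 genes summed to 9525 UMIs or 3932 CPM in the control library and 6748 UMIs or 3716 CPM in the photoconversion library, a ratio of photoconversion to control of 0.945 (95% interval 0.916 to 0.975). The core alpha and beta rings summed to 2036 and 1917 CPM, a ratio of 0.942 (0.901 to 0.984). The 19S and assembly-linked genes summed to 1197 and 1039 CPM, a ratio of 0.868 (0.819 to 0.920). The activators lay at 486 and 526 CPM, a ratio of 1.08 (0.992 to 1.18), and the immunoproteasome genes at 212 and 233 CPM, a ratio of 1.10 (0.965 to 1.25), so both of these intervals include 1. The log2 difference of the activators, 0.11, was -0.11 when each cell was thinned to 1000 UMIs. That of the immunoproteasome genes, 0.138, was 0.055 after thinning and 0.033 without cells holding 3 UMIs of other cell types. Scaling mattered at this size of difference. With TMM factors, which centre the bulk of genes, the log2 difference of all members was -0.01 against -0.08 with total UMIs, and that of the 19S genes was -0.14 against -0.20.

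Counted gene by gene, 12 of the 40 measured members had a higher and 28 a lower CPM in the photoconversion library. Of all 8823 genes with at least 20 UMIs, 3735 were higher and 5088 lower. With TMM factors 15 of the 40 members were higher. By CPM, the median log2 difference of the members was -0.15, beside -0.07 over all 8823 genes, whose quartiles were -0.31 and 0.16. A fold of 1.5 set the size of a difference worth naming. It was passed upward by 2 members, Psme3 and Psme4, beside 6.28% of all genes, and downward by 1, Psmd13, beside 9.84% of all genes. Those shares of the members are near or below the background. The genes of the ubiquitin pathway that work with the proteasome (ubiquitin precursors, chaperones of assembly, shuttles and regulators) are given for comparison: of 36 listed, 32 were found, 0 passed the fold upward and 3 downward (Psmf1, Ube3c and Ubqln1), and their median was -0.03.

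**Figure D1:**
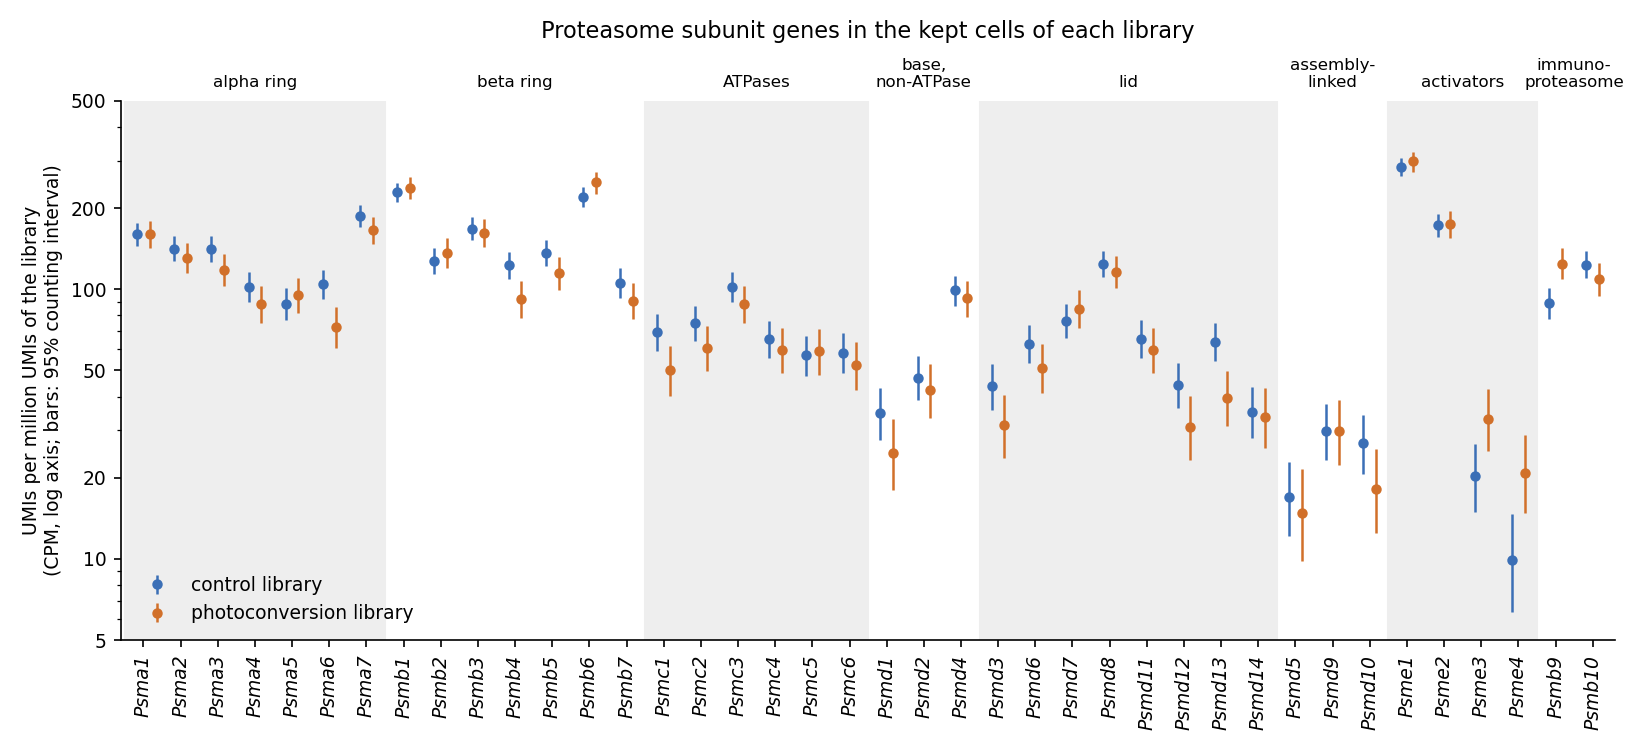
Level of each of the 40 proteasome genes with at least 20 UMIs in the control (blue) and photoconversion (orange) libraries, as CPM on a log axis, with exact 95% Poisson intervals; shaded and plain bands mark the groups by role. The points of most genes overlap, and the orange points of Psme3, Psme4 and Psmb9 lie above the blue while those of Psmd13 and Psma6 lie below. Heights compare each gene between the libraries and are not read as an order of genes by level.

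Within the alpha ring, Psma6 stood apart. The ring summed to 928 CPM in control and 835 in photoconversion cells, a ratio of 0.899 (0.842 to 0.960). Psma6, a ring subunit on chr12:55384222-55418454, was at 104 and 72.7 CPM from 253 and 132 UMIs, a ratio of 0.696 (0.560 to 0.862). In P2ry12-dominant cells its ratio was 0.493 (0.320 to 0.739), and in Cst7-dominant cells 0.798 (0.606 to 1.05). Psma7 had the most UMIs of the ring, at 187 and 165 CPM, and Psma1 was at 160 in both libraries. Psma5 had the highest ratio of the ring, 1.08 (0.877 to 1.32), at 88.3 and 95.3 CPM. Apart from Psma6 and Psma3 (0.839, 0.704 to 0.997), each interval in the ring included 1.

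The beta ring summed to 1108 and 1082 CPM, a ratio of 0.977 (0.921 to 1.04). Of its 3 catalytic genes, Psmb6 was at 220 CPM in control and 249 in photoconversion cells, a ratio of 1.13 (0.998 to 1.29). Psmb5 was at 136 and 115 CPM (0.841, with an interval that just included 1) and Psmb7 at 106 and 90.9 CPM (0.860, 0.703 to 1.05). Together the 3 were level, at 461 and 454 CPM and a ratio of 0.984 (0.899 to 1.08). Psmb1, a structural subunit, was at 229 and 238 CPM and Psmb3 at 168 and 162 CPM. Psmb4, structural as well, was the lowest by ratio, at 123 and 92.0 CPM, 0.750 (0.617 to 0.910).

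The immunoproteasome pair differed in direction. Psmb9 lies in the MHC region on chr17:34181987-34187764 (GENCODE M21 positions on GRCm38, minus strand) and encodes beta1i, which takes the place of the Psmb6 product. It had 215 UMIs or 88.7 CPM in the control library and 226 UMIs or 124 CPM in the photoconversion library, a ratio of 1.40 (1.16 to 1.70). The higher level was seen in both cell classes, with a ratio of 1.77 (1.21 to 2.58) in P2ry12-dominant cells and of 1.23 (0.975 to 1.54) in Cst7-dominant cells. The difference between those 2 ratios was not tested. Psmb10, on chr8:105935735-105938444, encodes beta2i, which takes the place of the Psmb7 product, and was at 123 and 109 CPM, a ratio of 0.883 (0.734 to 1.06). An exon of Psmb9 overlaps one of Tap1 on the other strand, and Tap1, a peptide transporter for class I, was itself at 35.9 and 53.4 CPM, a ratio of 1.49 (1.10 to 2.01). Whether the counting used strand is not given in the sources used here, so UMIs of this pair may not be separable where they overlap. Among the genes of class I loading, H2-D1, a class I heavy chain, was at 1754 and 2465 CPM, and B2m, the light chain, at 10132 and 11452 CPM. Calr and Pdia3 of the same list went the other way, at 718 and 597 CPM and at 550 and 425 CPM. The 12 class I loading genes with at least 20 UMIs had a median log2 difference of 0.05, and 0 passed 1.5-fold in either direction. Of 27 interferon-response genes, 7 passed it upward and 2 downward, with a median of 0.42.

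The activators held both members that passed the fold upward, each on few UMIs. Psme3, on chr11:101316213-101323537, encodes the nuclear PA28 gamma and had 49 and 60 UMIs, 20.2 and 33.0 CPM, a ratio of 1.63 (1.10 to 2.43). Psme4, on chr11:30771726-30880361, encodes the nuclear activator PA200 and had 24 and 38 UMIs, 9.91 and 20.9 CPM, a ratio of 2.11 (1.23 to 3.68). When each cell was thinned to 1000 UMIs the log2 difference of Psme3 was 0.04 against 0.71, and that of Psme4 0.69 against 1.08. The PA28 pair that interferon induces was level. Psme1 (chr14:55578123-55581529) was at 284 and 298 CPM from 687 and 541 UMIs, a ratio of 1.05 (0.937 to 1.18). Psme2 (chr14:55587441-55591113) was at 173 and 174 CPM, a ratio of 1.01 (0.869 to 1.17). The genes of the pair lie 5911 bases apart. Psme2b, a retrocopy of Psme2 counted separately, had 37 and 43 UMIs, so reads shared by the copies may have been split or lost.

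Every part of the 19S cap had a ratio below 1. The ATPases summed to 427 and 369 CPM (0.866, 0.784 to 0.955), the non-ATPase base to 181 and 160 CPM (0.883, 0.759 to 1.03), and the lid to 516 and 447 CPM (0.867, 0.792 to 0.947). Psmd13, a lid subunit on chr7:140881968-140898643, was the only member past the fold downward, with 155 UMIs or 64.0 CPM against 72 UMIs or 39.6 CPM, a ratio of 0.620 (0.462 to 0.825). It was 0.640 in Cst7-dominant and 0.564 in P2ry12-dominant cells. An exon of Psmd13 overlaps one of Sirt3 on the other strand. Its log2 difference of -0.69 became -0.11 with equal weight per cell and -0.44 without cells holding 3 UMIs of other cell types, both short of the fold. Among the ATPases, Psmc1 was lowest by ratio, at 69.3 and 50.1 CPM (0.723, 0.554 to 0.938), and Psmc5 highest, at 57.0 and 58.9 CPM (1.03, 0.796 to 1.34). Psmc3, with the most UMIs of the ATPases, was at 102 and 88.1 CPM, and Psmc2, the next by UMIs, at 74.7 and 60.6 CPM (0.811, 0.634 to 1.03). In the base, Psmd4, a ubiquitin receptor, was at 99.1 and 92.5 CPM, Psmd2 at 47.1 and 42.4 CPM and Psmd1 at 34.7 and 24.8 CPM. In the lid, Psmd8 was at 124 and 116 CPM and Psmd7 at 76.4 and 84.8 CPM. The 3 genes linked to assembly of the base summed to 73.5 and 62.8 CPM, with an interval of the ratio from 0.669 to 1.09.

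**Figure D2:**
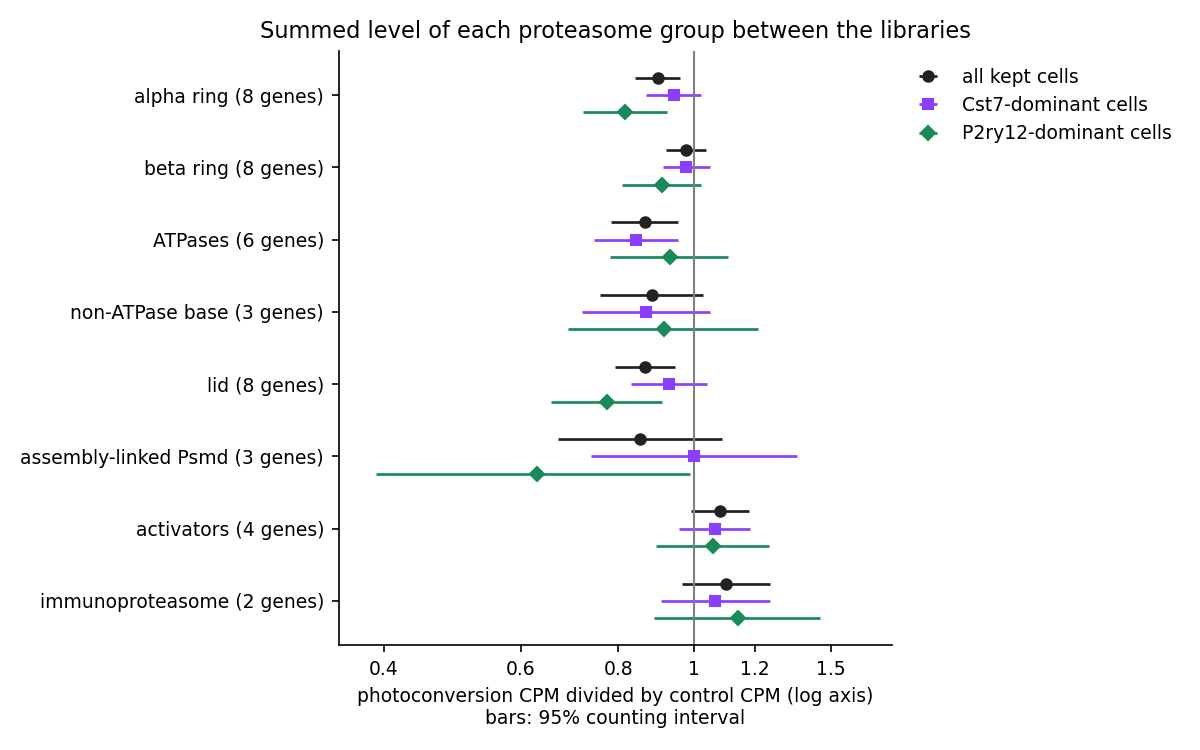
Ratio of photoconversion to control CPM for the summed genes of each group, on a log axis, in all kept cells (circles), Cst7-dominant cells (squares) and P2ry12-dominant cells (diamonds), with exact 95% counting intervals; the line marks equal levels. The alpha ring, the beta ring, the ATPases, the non-ATPase base and the lid lie below 1 in all 3 sets of cells. The activators and the immunoproteasome lie above it in these unthinned sums (after thinning, done here for all kept cells, the activators lay below 1). The lowest point is that of the assembly-linked genes in P2ry12-dominant cells, 0.63.

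The second comparison set Cst7-dominant against P2ry12-dominant cells. UMIs were summed per library and class, which gave 4 sums, and tested with edgeR's quasi-likelihood test with the library as a block. The 2 libraries thus stand in for replicates. The block takes up a library difference shared by both classes. The spread that is left includes any difference in the class effect between the treatments. Cst7-dominant cells were deeper, with medians of 4655 and 5852 UMIs in the control and photoconversion libraries against 2206.5 and 2739 in P2ry12-dominant cells. They also held more ribosomal protein UMIs (22.2% and 22.9% against 14.2% and 15.7%) and fewer Malat1 UMIs (0.646% and 0.756% against 2.48% and 2.46%). Disease-associated markers summed to 5889 and 6399 CPM against 589 and 744 CPM. That list holds Cst7, which defines the classes, so much of this gap is set by the cut. Over all kept cells Cst7 gave 7338 of the 9274 UMIs of the list in the control library. In the photoconversion library it gave 6600 of 8770. Of the other lists, endothelial markers were at 70.2 and 82.5 CPM against 317 and 15.0 CPM, and monocyte markers at 3.4 and 4.6 CPM against 51.2 and 44.9 CPM. The part of these differences in the results was not tested.

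Over the whole proteasome the classes were close in summed level, and the share taken by the beta ring differed, mainly through Psmb1 and Psmb6. All members summed to 3889 CPM in Cst7-dominant and 3981 CPM in P2ry12-dominant control cells, and to 3741 and 3555 CPM in the photoconversion library. As a share of proteasome UMIs, which no scaling can move, the beta ring took 29.5% (exact binomial interval 28.4 to 30.7) in Cst7-dominant and 25.7% (24.2 to 27.2) in P2ry12-dominant control cells. In the photoconversion library it took 30.1% (28.8 to 31.4) and 26.2% (24.1 to 28.4). Psmb1 and Psmb6, split off after their values were seen, took 12.5% against 9.69% in the control library and 14.3% against 9.45% in the photoconversion library. The other 5 detected genes of the ring took 17.1% against 16.0% and 15.8% against 16.7%, with overlapping intervals and no common direction. The lid went the other way, with 12.3% against 14.7% in the control library and 11.9% against 12.8% in the photoconversion library. So did the ATPases, with 10.6% against 11.4% and 9.31% against 11.9%. The alpha ring took 22.8% against 24.5% and 22.4% in both classes. The immunoproteasome genes took 5.54% against 5.23% and 6.14% against 6.68%, so that pair showed no common direction. The intervals of the beta ring did not overlap between classes in either library, those of the lid overlapped in the photoconversion library, and those of the ATPases in the control library.

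**Figure D3:**
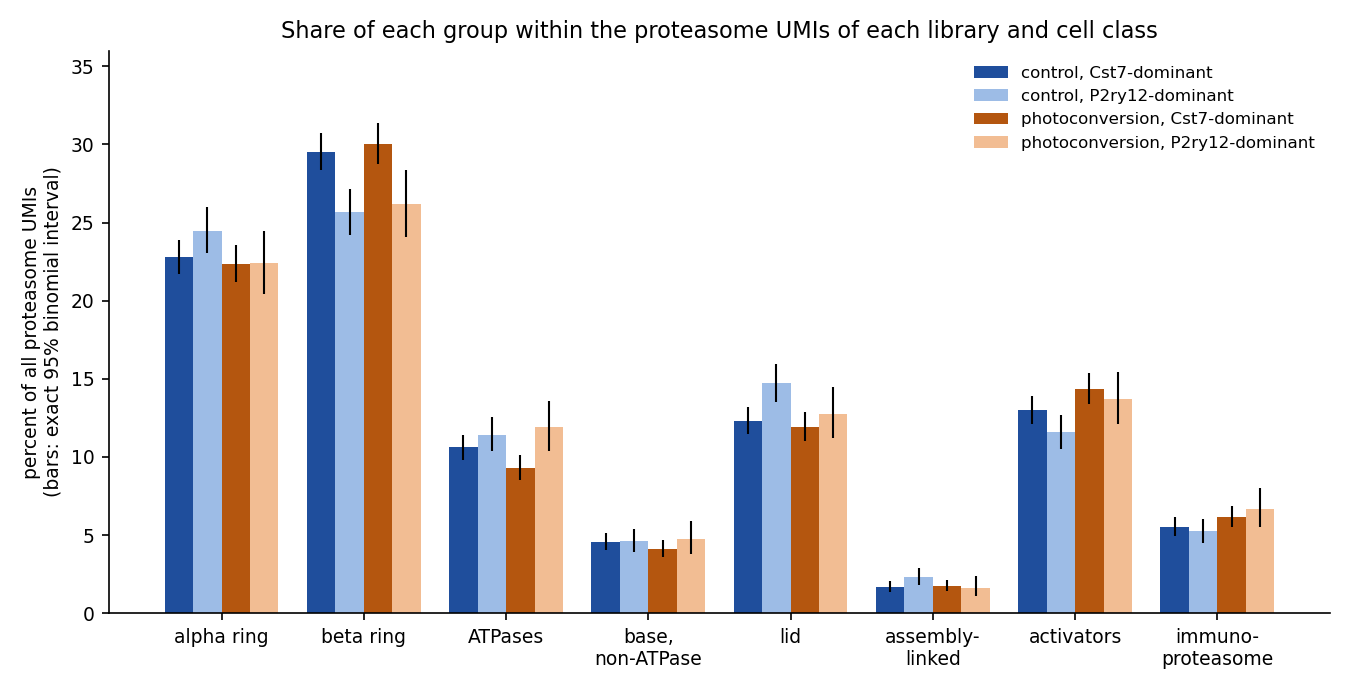
Share of each group among all proteasome UMIs in percent, for Cst7-dominant (dark) and P2ry12-dominant (light) cells of the control (blue) and photoconversion (orange) libraries, with exact 95% binomial intervals. The dark bars of the beta ring stand above the light ones in both libraries, at 29.5% and 30.1% against 25.7% and 26.2%, and those of the lid and the ATPases below.

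By gene, 11 of the 40 members tested were higher in Cst7-dominant cells at an adjusted p below 0.05 and 0 lower, beside 14.2% of 7354 genes higher and 11.4% lower. At an unadjusted p below 0.05 there were 14, each of them higher. The 11 were Psma5 and Psma7 of the alpha ring, Psmb1, Psmb4, Psmb6 and Psmb7 of the beta ring, Psmd8, Psmd10, Psme1, Psme2 and Psmb9. The median log2 difference of the members was 0.27, and -0.02 over all genes. This count depended on the scaling. With total UMIs in place of TMM factors the median of all genes moved to -0.33 and that of the members to -0.04, and 2 members were higher (Psmb1 and Psmb6) and 1 lower (Psmd7, log2 -0.63, adjusted p = 0.0215 by edgeR). The split of calls over all genes moved from 1045 higher and 836 lower to 568 and 1371. DESeq2 called the same 2 members higher, Psmb1 and Psmb6, and 0 lower, beside 375 higher and 137 lower of all 7354 genes. Psmb1 and Psmb6 were the members called in each of the 10 alternative fits.

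Psmb6, the catalytic beta1 gene, was at 243 CPM in Cst7-dominant and 183 CPM in P2ry12-dominant control cells, and at 273 and 178 CPM in the photoconversion library. Its log2 difference was 0.81 (SE 0.13, adjusted p = 7.42e-08 by edgeR), and 0.50 with total-UMI scaling (adjusted p = 0.0106). Psmb1, a structural subunit on chr17:15475021-15499751, was at 242 and 202 CPM in the control library and at 261 and 158 CPM in the photoconversion library. Its log2 difference was 0.76 (SE 0.13, adjusted p = 5.18e-07 by edgeR), and 0.45 with total-UMI scaling (adjusted p = 0.0286). For both genes the Cst7-dominant value was the higher in each library under either scaling. Psmb7, the beta2 gene, was at 109 and 96.4 CPM and at 93.9 and 77.0 CPM, a log2 difference of 0.53 (SE 0.18, adjusted p = 0.0160), which was 0.22 with total-UMI scaling and not called. The third catalytic gene, Psmb5, was at 136 CPM in both classes of the control library and at 111 and 115 CPM in the photoconversion library, and was not called (log2 0.29, adjusted p = 0.181).

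The 250 bases before the RefSeq start are shown for the 3 called members whose window holds no annotated exon of its own gene, because these genes were called higher together under TMM scaling (GRCm38.p6, RefSeq, 5′ to 3′ on the gene's strand). Capitals mark TGACNNNGC, the core of the antioxidant response element, through which NRF1 and NRF2 are known to drive proteasome genes.
Psmb6, chr11:70525107-70525356, plus strand: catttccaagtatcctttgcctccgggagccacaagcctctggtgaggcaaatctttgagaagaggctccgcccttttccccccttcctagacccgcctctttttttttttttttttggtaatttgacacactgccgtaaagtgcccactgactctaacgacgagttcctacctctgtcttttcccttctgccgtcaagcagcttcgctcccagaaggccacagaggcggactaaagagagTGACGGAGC
Psma5, chr3:108256676-108256925, plus strand: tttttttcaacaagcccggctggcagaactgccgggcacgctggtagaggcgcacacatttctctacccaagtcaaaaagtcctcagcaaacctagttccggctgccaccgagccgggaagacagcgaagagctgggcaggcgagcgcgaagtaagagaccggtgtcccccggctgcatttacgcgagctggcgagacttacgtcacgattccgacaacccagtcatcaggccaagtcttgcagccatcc
Psma7, chr2:180042465-180042714, minus strand: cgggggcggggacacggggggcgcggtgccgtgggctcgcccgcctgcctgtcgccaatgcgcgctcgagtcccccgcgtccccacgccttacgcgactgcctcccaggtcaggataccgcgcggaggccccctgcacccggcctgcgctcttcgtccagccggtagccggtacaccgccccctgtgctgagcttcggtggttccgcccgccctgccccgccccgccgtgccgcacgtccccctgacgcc
Of these, Psmb6 held a match, which begins 9 bases before the start. Over both strands, 5 of 38 windows of the 35 members with a RefSeq entry held one (13.2%), those of Psmb5, Psmb6, Psmc6, Psmd12 and Psmd9, beside 10.2% of all 32851 windows of the same length. A core of the interferon-stimulated response element, GAAANNGAA, was in 3 member windows (7.9%, Psmb3, Psmd4 and Psmd9) and in 7.13% of all. The gamma-activated site TTCNNNGAA was in 0 member windows and in 7.02% of all. No matches of different motifs shared bases in the member windows. Psmb1 was not among the entries used.

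Psma5 (chr3:108256926-108279974) was at 94.1 and 76.2 CPM in Cst7-dominant and P2ry12-dominant control cells and at 102 and 74.9 CPM in the photoconversion library, a log2 difference of 0.67 (SE 0.19, adjusted p = 0.00264 by edgeR). Psma7 (chr2:180036374-180042433) was at 187 and 180 CPM and at 177 and 133 CPM, a log2 difference of 0.51 (SE 0.14, adjusted p = 0.00253 by edgeR). Neither was called with total-UMI scaling, where the differences were 0.36 and 0.20. Psma1 and Psma6 were not called (log2 0.03 and -0.03), and Psma6 was at 90.0 against 134 CPM (132 and 113 UMIs) in the control library and at 71.8 against 66.3 CPM in the photoconversion library, opposite in direction. Psmb4 was at 130 and 107 CPM in the control library and at 91.6 and 98.4 CPM in the photoconversion library, and its call (log2 0.44, adjusted p = 0.0421 by edgeR) held in 3 of 10 alternatives.

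In the cap, 0 of 6 ATPases and 0 of 3 non-ATPase base genes were called. Psmc4 had the highest log2 difference of the ATPases, 0.31 (adjusted p = 0.322 by edgeR). It was at 63.4 and 66.6 CPM in Cst7-dominant and P2ry12-dominant control cells and at 60.3 and 55.6 CPM in the photoconversion library. Psmc1 was at 66.1 and 77.4 CPM in Cst7-dominant and P2ry12-dominant control cells and at 41.2 and 72.7 CPM in the photoconversion library, with a log2 difference of -0.14 (adjusted p = 0.709 by edgeR). Of the lid, Psmd8 was called (log2 0.53, SE 0.16, adjusted p = 0.00822 by edgeR), and the difference lay mostly in 1 library: it was at 122 and 131 CPM in the control library and at 130 and 77.0 CPM in the photoconversion library. Psmd7, a lid subunit beside the deubiquitinase, pointed down in both libraries, at 60.7 against 105 CPM and 77.1 against 105 CPM, and was not called under TMM scaling (log2 -0.32, adjusted p = 0.215). Psmd10, a chaperone of base assembly also known as gankyrin, had a log2 difference of 1.13 (SE 0.40, adjusted p = 0.0245) that rested on 2 UMIs in P2ry12-dominant photoconversion cells against 31 in Cst7-dominant ones, and on 20 against 44 UMIs in the control library. The other base chaperones, Psmd5 (log2 -0.56) and Psmd9 (log2 -0.32), were not called.

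Psme1 was at 291 and 273 CPM in Cst7-dominant and P2ry12-dominant control cells and at 303 and 263 CPM in the photoconversion library, a log2 difference of 0.45 (SE 0.12, adjusted p = 0.00171 by edgeR). Psme2 was at 181 and 165 CPM and at 182 and 163 CPM, a log2 difference of 0.45 (SE 0.14, adjusted p = 0.00772). With total-UMI scaling both were 0.14 and not called. Psme3 and Psme4 were not called (adjusted p = 0.324 and 0.805). Psmb9 was at 100.2 and 70.2 CPM in the control library, but at 123 and 124 CPM in the photoconversion library, where the classes were level. Its log2 difference was 0.56 (SE 0.17, adjusted p = 0.00842 by edgeR), and 0.25 with total-UMI scaling, not called. Psmb10 was at 115 and 138 CPM and at 107 and 113 CPM, and was not called (log2 0.12, adjusted p = 0.655).

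**Figure D4:**
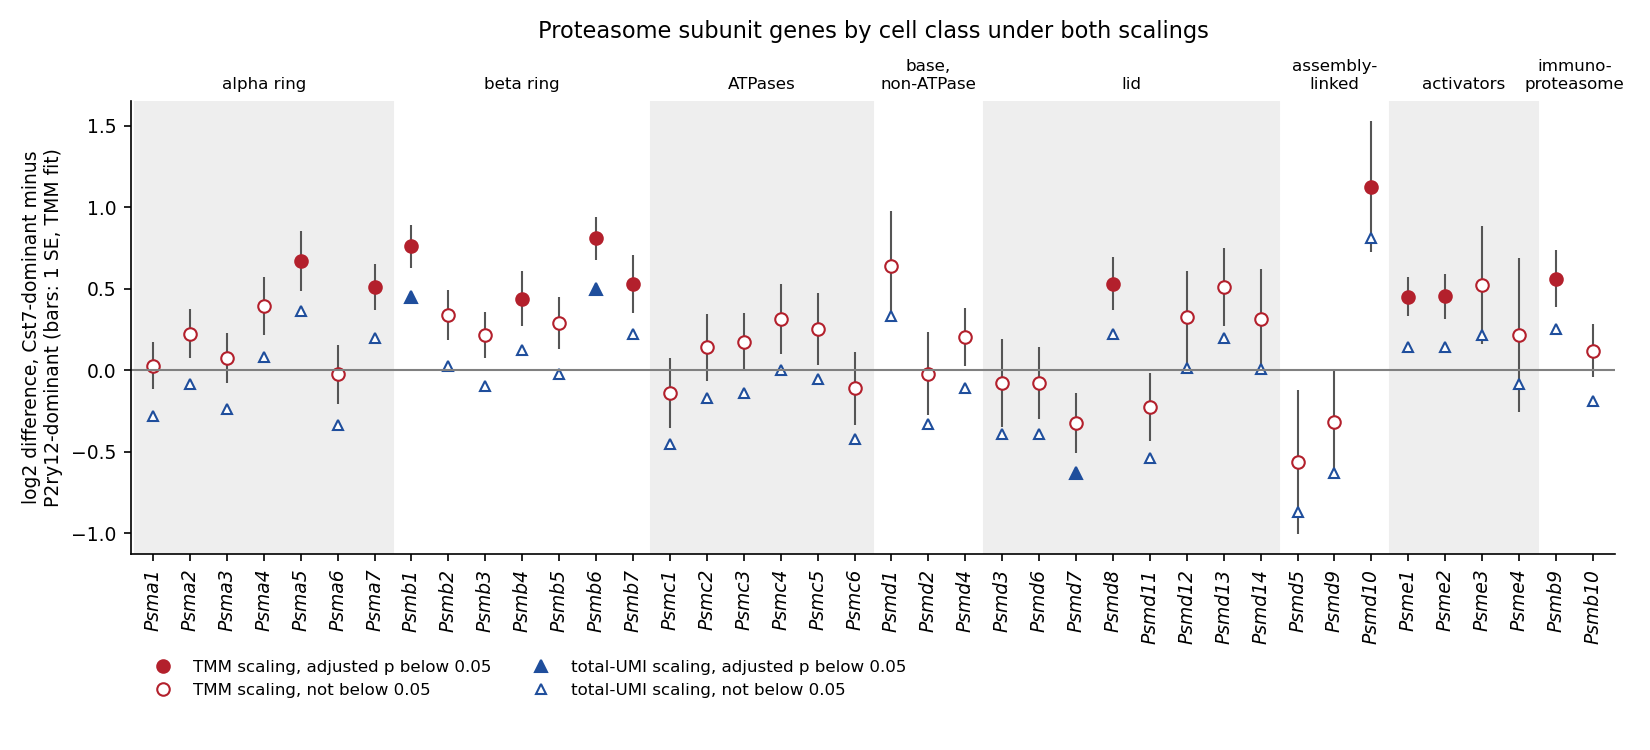
Log2 difference of Cst7-dominant minus P2ry12-dominant cells for the 40 members tested, with TMM scaling (circles, bars of 1 SE) and with total-UMI scaling (triangles); filled symbols have an edgeR adjusted p below 0.05. The triangles lie lower than the circles throughout, and Psmb1 and Psmb6 are filled under both scalings.

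Among the partner genes, 7 of 30 tested were higher and 3 lower in Cst7-dominant cells, with a median of 0.36. Rps27a, which encodes ubiquitin fused to a ribosomal protein, had a log2 difference of 0.92, and Ubb, a polyubiquitin gene, one of 0.39. Psmg4, a chaperone of alpha ring assembly, was at the upper end (log2 1.59, SE 0.24) and Psmg2, another, at the lower (log2 -1.09, SE 0.38, adjusted p = 0.02 by edgeR). Further calls, named after their values were seen, were Pomp, the maturation factor of the core (0.54), Sem1, a small lid subunit (0.61), and Txnl1, a cap-bound thioredoxin (0.58), all higher. Akirin2, a nuclear import factor for proteasomes (-1.05), was lower. With total-UMI scaling 3 partners were higher, Psmg4 and Rps27a among them, and Psmg2 and Akirin2 were lower there too. The ribosomal protein share of UMIs differed between the classes as given above. Of the 12 class I loading genes tested, 3 were higher (H2-D1, H2-K1 and B2m) and 2 lower (Pdia3 and Irf1) by edgeR with TMM scaling. With total-UMI scaling 2 were higher (H2-D1 and B2m) and 5 lower (Tap2, Tapbp, Calr, Pdia3 and Irf1).

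Proteasome UMIs per cell were compared at equal depth. Thinned to 1000 UMIs, which left out 116 control and 45 photoconversion cells, a cell held a mean of 0.389% proteasome UMIs (interval 0.371 to 0.408) in control and 0.357% (0.335 to 0.380) in photoconversion cells. Unthinned medians over all kept cells were 0.359% and 0.337%. In the control library the thinned mean was 0.427% in Cst7-dominant and 0.361% in P2ry12-dominant cells, and in the photoconversion library 0.375% and 0.325%. At 2000 UMIs the control order turned, with 0.398% and 0.419%, so the order of the classes is not read from these shares.

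The members were then compared in cells rich in interferon-response transcripts, defined by at least 3 UMIs and at least 0.5% of UMIs from 30 listed genes, none of them a member. The libraries held 56 and 25 such cells. Near the cut, between 0.4% and 0.6%, lay 34 and 22 cells with at least 3 UMIs, a count that takes in both sides of the cut. Of the members, 0 of 40 were called by edgeR, beside 1.13% of 6922 genes higher and 0.116% lower, while 26 of the 27 interferon genes tested, which chose the cells, were higher. At an unadjusted p below 0.05 there were 3 members, Psmb9, Psmb10 and Psmd7, and DESeq2 called 0. The immunoproteasome genes summed to 292 CPM in interferon-rich and 201 CPM in other control cells, a ratio of 1.45 (1.14 to 1.83). In the photoconversion library they summed to 448 and 217 CPM, a ratio of 2.07 (1.54 to 2.73).

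Psmb9 was at 131 CPM from 39 UMIs in interferon-rich control cells and at 82.8 CPM in the others, and at 220 CPM from 29 UMIs and 117 CPM in the photoconversion library, a log2 difference of 0.72 (SE 0.27, adjusted p = 0.401 by edgeR). Psmb10 was at 161 and 118 CPM and at 228 and 99.7 CPM, a log2 difference of 0.72 (SE 0.26, adjusted p = 0.391). Both genes were higher in the interferon-rich cells of each library, yet at this depth neither passed the adjustment over all genes. Psme1 was at 396 and 268 CPM and at 372 and 292 CPM (log2 0.41, adjusted p = 0.742), and Psme2 at 238 and 163 CPM and at 182 and 173 CPM (log2 0.29, adjusted p = 0.940). Psmd7 was at 111 and 71.5 CPM and at 160 and 79.0 CPM (log2 0.74, adjusted p = 0.492). Of the standard catalytic genes, Psmb6 was lower in the interferon-rich cells of both libraries, and Psmb5 and Psmb7 higher, with 0 of the 3 called by edgeR or at an unadjusted p below 0.05. Psmb6 was at 215 and 220 CPM and at 198 and 253 CPM, Psmb5 at 154 and 134 CPM and at 160 and 111 CPM, and Psmb7 at 137 and 101 CPM and at 129 and 87.9 CPM (log2 0.43, adjusted p = 0.885 by edgeR). Over all 40 members the median log2 difference was 0.24, and -0.04 over all genes. Of the partners, 0 of 30 were called by edgeR, and of class I loading 1 of 12, Irf1.

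Cells rich in MHC class II transcripts (Cd74, H2-Aa, H2-Ab1 and H2-Eb1, by the same cut) numbered 15 in control and 38 in photoconversion cells. Near the cut, on either side of it, lay 10 and 11 cells, so these counts can overlap those of the class II-rich cells. Between class II-rich and other cells 0 of 40 members were called by edgeR, beside 0.662% of 6800 genes higher and 0.515% lower, and 0 by DESeq2. At an unadjusted p below 0.05 there was 1, Psme4, on 2 and 13 UMIs in class II-rich cells. Psmb9 was at 138 and 86.9 CPM in class II-rich and other control cells and at 146 and 120 CPM in the photoconversion library (log2 0.47, adjusted p = 0.727). Psme1 was at 265 and 284 CPM and at 371 and 284 CPM (log2 0.29, adjusted p = 0.796). The median of the members was 0.05, and -0.05 over all genes. The class I genes H2-K1 and H2-D1 were called in these cells, with log2 differences of 1.06 and 0.96, and of the partners 0 of 31 were called.

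**Figure D5:**
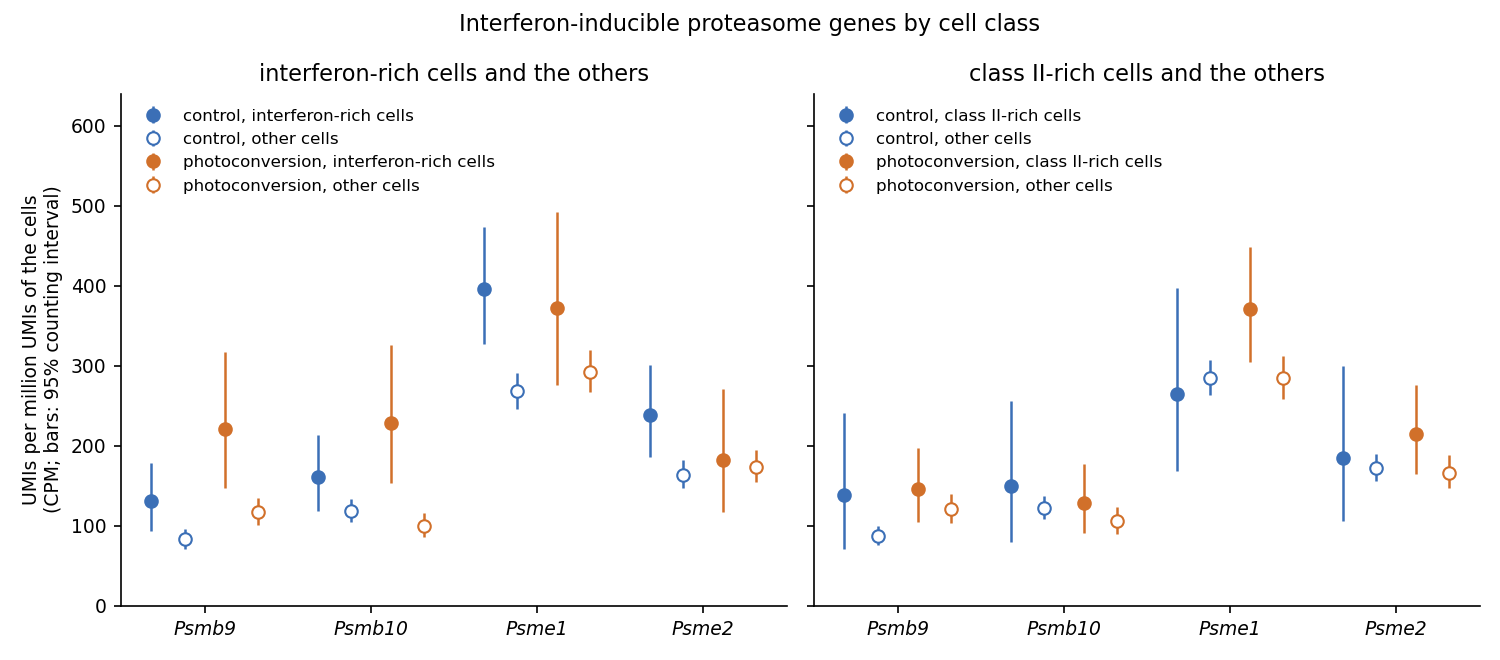
CPM of Psmb9, Psmb10, Psme1 and Psme2 in interferon-rich (left, filled) and class II-rich (right, filled) cells and in the other cells (open) of the control (blue) and photoconversion (orange) libraries, with exact 95% Poisson intervals. On the left the filled points lie above the open ones for each gene in both libraries, most clearly for Psmb10 in the photoconversion library, at 228 against 99.7 CPM.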

How the data were processed

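The authors deposited 1 matrix of unnormalised UMI counts for each library, with 2000 barcodes. The submitters' processing notes name mm10 and bcl2fastq, and per the file headers Cell Ranger 3.0.2 made the matrices. Members were matched by symbol, and positions came by Ensembl identifier from GENCODE. UMIs were summed over kept cells and scaled to their total (CPM), with exact Poisson intervals, conditional binomial intervals of ratios and Clopper-Pearson intervals of shares, all at 95%. These intervals treat UMIs as independent molecules and cover counting error only. With 1 library per group the library comparison had no test. Class comparisons used edgeR 4.0.16 (TMM, filterByExpr, quasi-likelihood test, library as a block, Benjamini-Hochberg over all genes) in R 4.3.3, with DESeq2 1.42.0 as an alternative. Both steps were checked on simulated data. Named were Psmb5, Psmb6, Psmb7, Psmb9, Psmb10, Psme1, Psme2, Psme3 and Psme4, and of each structural group the 2 members with the most UMIs and those with the highest and lowest library ratio and class difference, and of the partners the 3 with the most UMIs and the most extreme in each comparison. Members, lists and classes were chosen with earlier results of these data known. Alternatives covered scaling, filters, thinning, weights and cuts. The deposited table of the whole series was not used, and some partner genes are counted but not reported here by name.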

Additional observations from a re-analysis of the deposited data

Results flagged for a closer look

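Psma7, an alpha ring gene, went in opposite directions in interferon-rich cells of the 2 libraries. In the control library it was at 298 CPM (89 UMIs) in interferon-rich and 171 CPM in other cells, a ratio of 1.75 (1.37 to 2.21). In the photoconversion library it was at 60.8 CPM (8 UMIs) and 173 CPM, a ratio of 0.351 (0.150 to 0.700). The difference between these ratios was not tested, and it was singled out among 40 members.

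Barcodes outside the kept cells also held proteasome UMIs, at a higher CPM in the photoconversion than in the control library. Barcodes with under 200 detected genes were at 3869 CPM (3530 to 4231) in the photoconversion and 3181 CPM (2899 to 3483) in the control library, from 480 and 467 UMIs. Barcodes with at least 200 genes and over 10% mitochondrial UMIs were at 2428 CPM (2130 to 2756) and 2089 CPM (1820 to 2387), so these last 2 intervals overlap.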

How the results depend on the processing

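The log2 difference of all members between libraries was -0.08, -0.0132 with TMM factors, -0.0137 with median-of-ratios factors, -0.13 without the 10 deepest cells of each library and -0.13 without cells holding 3 UMIs of other cell types. That of the core was -0.0185 and -0.0190 under these factors, that of the 19S genes -0.0527 with equal weight per cell, and that of the activators -0.11 after thinning. Members past 1.5-fold upward numbered 1 without cells holding UMIs of other types and 1 with a minimum of 100 UMIs, which 37 members reached. The members also changed where their number did not: after thinning they were Psmc5 and Psmd14, and with equal weight per cell Psmd14 and Psme4, in place of Psme3 and Psme4. Downward they numbered 7 after thinning, where 36 members were measured, and 3 with equal weight per cell (Psmd3, Psmd5 and Psmd6, not Psmd13). They numbered 2 at a 5% mitochondrial limit and 4 without the deepest cells. Without cells holding UMIs of other types they numbered 3, as with equal weight of the classes. The share of all genes past the fold under these settings is not given here. These counts, and those of the partners below, are therefore not read as a result about the genes.

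Members higher in Cst7-dominant cells numbered 2 with DESeq2, 2 with total-UMI scaling (with 1 lower), 6 without the replicate block and 7 after thinning, where 27 members were tested. Over all 7354 genes, those higher numbered 375 with DESeq2, 568 with total-UMI scaling and 893 without the block. After thinning they numbered 459 of 2008. The thinned share was 0.366% and 0.331% in the control and photoconversion libraries at 500 UMIs, and 0.411% in the control library at 2000. Of the partners, those past 1.5-fold upward numbered 1 after thinning, 4 with equal weight and 1 without cells holding UMIs of other types, and downward 5 and 0 with the last 2. By class 3 were higher with DESeq2 and with total UMIs, and lower were 0 with DESeq2 and 1 after thinning. The cause was not tested. In each library alone, on the TMM scale, the 11 called members were higher in Cst7-dominant cells. They were chosen by the fit to these same libraries, so this is no separate test. By CPM, the ratio of Cst7-dominant to P2ry12-dominant cells was 0.932 for Psmd8 in the control library. In the photoconversion library it was 0.931 for Psmb4 and 0.991 for Psmb9. No paired analysis was possible between the treatments because each had 1 library and the labels carry no replicate number. Depth limits genes of few UMIs such as Psme3, Psme4 and Psmd10, with 49, 24 and 65 UMIs in the control library.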
